A study of Rattus norvegicus with 12 samples.

Results

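Extracellular matrix and fibrosis genes were followed in whole kidneys of 4 rat strains at 30 days of age. The set was a list of 41 genes: collagens, laminins, proteoglycans, glycoproteins, crosslinking enzymes, proteases and their inhibitors, growth factors, and 1 gene each of myofibroblasts and pericytes. A gene was measured by the probe set that carried its symbol alone and had the highest mean over all 12 arrays. Of the 41 genes, 40 had such a probe set and all 40 entered the tests, among 10887 genes tested in all. The exception was Thbs1, the matricellular glycoprotein thrombospondin 1, for which no value is given. The gene often written Ccn2 is called Ctgf here, as on the array.

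SD stands for the outbred Sprague Dawley stock. From this stock came PCK, whose kidneys form cysts because of a mutation in Pkhd1, the gene behind recessive polycystic kidney disease. FHH, the Fawn Hooded Hypertensive rat, is an inbred strain. FHH.Pkhd1 is a congenic strain in which a PCK segment of chromosome 9, between the markers D9Rat35 and D9Rat70, replaced the FHH segment. All rats ate the 5LOD diet, and no strain received a drug or other treatment. Kidney RNA of 6 animals (both kidneys of each) was combined into 1 pool per strain, and that pool was hybridized to 3 Affymetrix arrays. The 3 arrays of a strain are therefore technical replicates, and every standard deviation, standard error (SE) and p-value here reflects array-to-array spread within pools, with animal-to-animal spread unmeasured. PCK and SD can differ at loci other than Pkhd1, and the congenic segment carries other genes beside it. No probe set carried the symbol Pkhd1 alone, so no level of the mutated gene is given.

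The extracellular matrix of the kidney has a sheet-like part, the basement membrane under tubules, glomeruli and vessels, built from type IV collagen, laminins and nidogen. It also has an interstitial part of fibrillar collagens, decorated by small leucine-rich proteoglycans and glycoproteins and made mainly by fibroblasts and pericytes. Lysyl oxidases crosslink collagen, metalloproteinases cut matrix and are held back by tissue inhibitors, and transforming growth factor beta is a well-known inducer of matrix genes. Fibrosis, the excess of such matrix, accompanies cyst growth in polycystic kidneys.

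Array medians of the log2 signals lay at 6.41 to 6.46. Over probe sets, correlations were 0.9973 to 0.9985 between arrays of the same pool and 0.9862 to 0.9959 between pools. Kidney identity was clear from proximal tubule genes, with pool means of 13.49 to 13.63 for the phosphate transporter Slc34a1 and 12.71 to 12.87 for the endocytic receptor Lrp2. A gene was called when the limma adjusted p (Benjamini-Hochberg over all genes tested) was under 0.05 and the difference reached 1.5-fold, which is 0.58 on the log2 scale. In each of the 5 contrasts described here, every gene past the fold limit also passed the adjusted p. The size of the difference therefore decided the calls. A pool mean below 5.74, the 40th percentile of all values, was taken as near the detection level, and differences that involve it are given on the log2 scale without a fold. The distal tubule gene Pvalb lay under that level in all pools (4.23 to 4.33). Precision is limited by the small number of arrays.

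Across the 4 strains, 10 of the 40 matrix genes (25%) were called for any difference, against 9.75% of all genes tested. The median gap between the highest and the lowest pool was 0.36 (log2) for matrix genes and 0.23 for all genes. FHH.Pkhd1 was the highest pool for 24 of the 40 and PCK the lowest for 22. Over all genes, FHH.Pkhd1 was highest for 37.4% and PCK lowest for 35.1%.

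PCK and SD differed in few matrix genes by more than the fold limit. In PCK minus SD, 4 of 40 were called, against 3.11% of all genes: Lox and Tnc higher, and Lum and Mmp9 lower. The median difference of the 40 was -0.04, with 16 above 0 and 24 below. By adjusted p alone, 8 genes were higher and 15 lower in PCK (57.5% of the 40, against 36.1% of all genes). In FHH.Pkhd1 minus FHH none of 40 was called, against 1.26% of all genes, and the differences lay between -0.53 and 0.36. Small differences there were mostly in one direction. Of the 40 genes, 33 were above 0, with a median of 0.15, whereas the median of all genes was 0.01 and 54.6% of all genes were above 0. At an unadjusted limma p under 0.05 the count was 29 (34.7% of all genes passed at that limit), and by adjusted p alone 22 genes passed (55%, against 22.2% of all genes), 21 of them higher in FHH.Pkhd1, a direction in which 12.5% of all genes passed.

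Between the 2 backgrounds, Lum, Dcn, Postn and Tnc were lower on the SD side both without and with the Pkhd1 mutation. In PCK minus FHH.Pkhd1, 7 of 40 were called (5.82% of all genes were called), and all 7 were lower in PCK (2.9% of all genes were called lower): Lum, Postn, Col15a1, Dcn, Col4a2, Tnc and Col1a1. The median difference was -0.23, with 32 genes below 0 and 8 above, while the median of all genes was -0.06 and 38.7% of all genes were above 0. By adjusted p alone 31 passed (77.5%, against 54% of all genes), 26 of them lower in PCK, a direction in which 35.6% of all genes passed. In SD minus FHH, 5 of 40 were called, against 3.31% of all genes. Lum, Dcn, Postn and Tnc were lower in SD (1.75% of all genes were called lower), and Ctgf was higher. Here the median was -0.03 (-0.04 for all genes) and 10 genes passed by adjusted p alone in each direction (50% of the 40 together, against 37.1% of all genes).

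**Figure D1:**
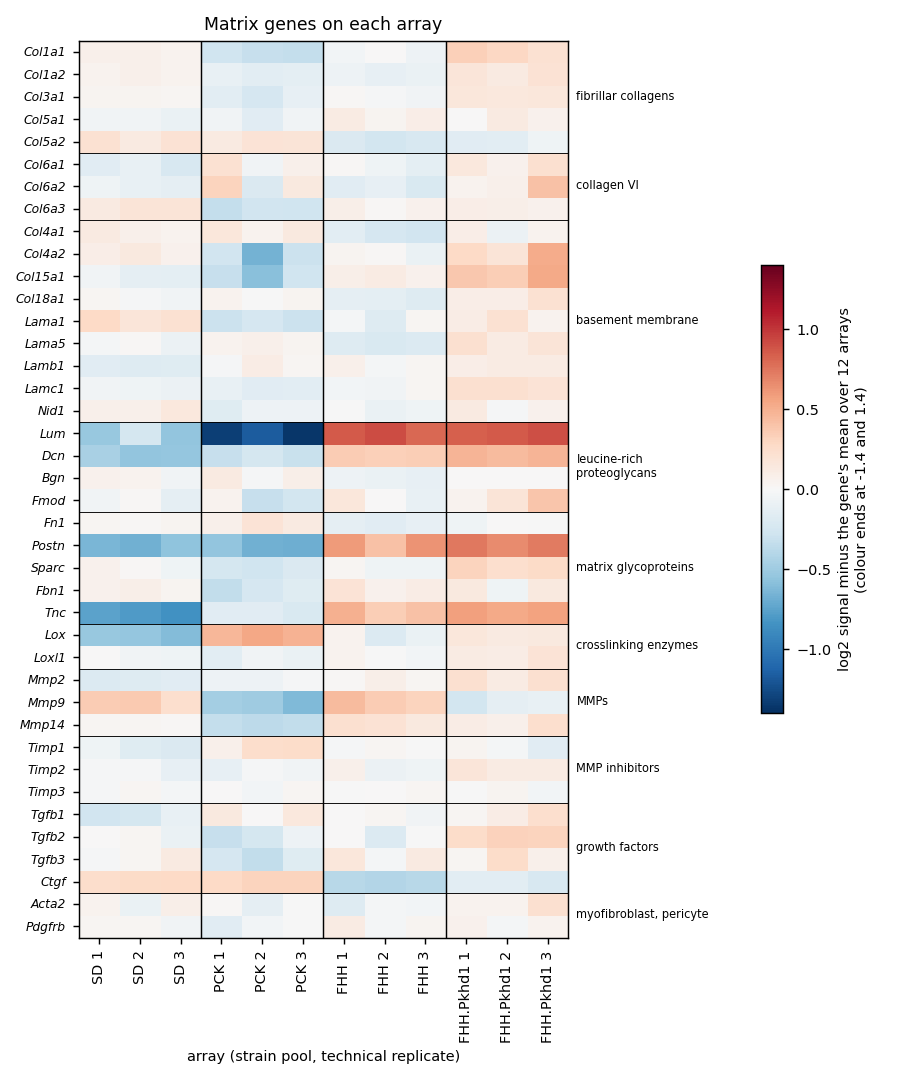
The 40 measured matrix genes (rows, grouped by role) on the 12 arrays (columns, 3 technical replicates of 1 pool per strain), coloured by log2 signal minus the gene's mean over the 12 arrays. Lum, Dcn, Postn and Tnc are above their mean on all 6 FHH and FHH.Pkhd1 arrays and below it on all 6 SD and PCK arrays.

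Among the fibrillar collagens, Col1a1, the alpha 1 chain of type I collagen (probe set 1370864_at, gene on chromosome 10), had log2 signals of 9.62, 9.57 and 9.56 on the PCK arrays, 9.97, 9.97 and 9.95 in SD, 9.86, 9.90 and 9.83 in FHH, and 10.23, 10.19 and 10.11 in FHH.Pkhd1. The PCK arrays were the lowest and the FHH.Pkhd1 arrays the highest, with no overlap between any pools. Col1a1 was called lower in PCK than in FHH.Pkhd1, by -0.59 ± 0.04 (SE; 1.51-fold, limma adjusted p = 9.25e-08), just past the fold limit. That call was lost without PCK replicate 3 (-0.58) or without FHH.Pkhd1 replicate 1 (-0.57), when its probe sets were averaged (-0.47), with quantile normalization (-0.55) and with median centring (-0.56). Its other probe set gave -0.34.

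Col3a1, the type III collagen of the interstitium, followed the same order of pools within a narrower span. It read 11.64, 11.55 and 11.67 in PCK, 11.82, 11.83 and 11.81 in SD, 11.80, 11.77 and 11.74 in FHH, and 11.94, 11.93 and 11.94 in FHH.Pkhd1. None of the differences of Col3a1 reached the fold limit. Col1a2, which pairs with Col1a1 in type I collagen, likewise ran from 11.02 in PCK to 11.31 in FHH.Pkhd1. Col5a2, a chain of the type V collagen that nucleates fibrils, had another order, with SD (9.83 ± 0.05, standard deviation, n = 3) and PCK (9.81 ± 0.04) above FHH.Pkhd1 (9.52 ± 0.05) and FHH (9.42 ± 0.02). SD minus FHH was 0.41 ± 0.04 (limma adjusted p = 5.51e-06) for Col5a2, below the fold limit. Col5a1 differed by at most 0.16 between pools on its kept probe set, whereas its second one ran from 8.37 in PCK to 8.66 in FHH.Pkhd1. On the kept probe sets, all 5 fibrillar collagens were below 0 in PCK minus SD (-0.38 to -0.01). There 4 of 5 were above 0 in FHH.Pkhd1 minus FHH (-0.02 to 0.31), with Col5a1 the exception. In that comparison the second probe set of Col5a1 gave 0.16, and that of Col5a2 averaged 9.22 in both pools.

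Collagen VI forms beaded microfilaments around cells. Its chain Col6a3 read 10.20, 10.27 and 10.26 on the PCK arrays, 10.66, 10.72 and 10.72 in SD, 10.62, 10.56 and 10.60 in FHH, and 10.63, 10.62 and 10.60 in FHH.Pkhd1. On this kept probe set the PCK arrays lay below all arrays of the other 3 pools, which spanned 10.56 to 10.72. There PCK minus SD was -0.46 ± 0.03 (1.38-fold, limma adjusted p = 5.70e-07), short of the fold limit. A weaker second probe set of Col6a3 averaged 5.84 in PCK, 6.04 in SD, 5.78 in FHH and 5.79 in FHH.Pkhd1, so PCK was not its lowest pool. It gave -0.20 in PCK minus SD. For the companion chains Col6a1 and Col6a2, which are neighbours on chromosome 20, the PCK minus SD differences were 0.24 ± 0.07 and 0.18 ± 0.11, and the arrays of PCK and FHH.Pkhd1 were widely spread for Col6a2 (7.17 to 7.68 and 7.42 to 7.78).

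The interaction test given further on compares the difference between a Pkhd1 strain and its comparison strain on the 2 backgrounds. It was called for 6 of the 40 matrix genes, against 5.02% of all genes. Of these 6, 3 were among the 9 basement membrane genes tested. Col4a2 is a chain of the type IV collagen network (1388494_at, chromosome 16). Its log2 signals were 9.00, 8.60 and 8.96 in PCK, 9.36, 9.40 and 9.32 in SD, 9.30, 9.28 and 9.17 in FHH, and 9.54, 9.44 and 9.78 in FHH.Pkhd1. Every PCK array lay below every other array, every FHH.Pkhd1 array lay above, and both pools were more widely spread than the others. Col4a2 was lower in PCK than in FHH.Pkhd1 by -0.73 ± 0.10 (1.66-fold, limma adjusted p = 7.41e-05).

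Its neighbour and partner chain Col4a1, with no protein-coding gene between them, did not show this pattern on the kept probe set. There Col4a1 averaged 11.24 ± 0.06 in PCK, 11.21 ± 0.04 in SD, 11.14 ± 0.09 in FHH.Pkhd1 and 10.91 ± 0.06 in FHH, and PCK minus FHH.Pkhd1 was 0.09 ± 0.05. On its second probe set FHH.Pkhd1 was the highest pool (10.64), and PCK minus FHH.Pkhd1 was -0.12. The interaction on that second probe set of Col4a1 was -0.34, short of the fold limit.

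Col15a1, a collagen of the zone between basement membrane and interstitium (1388939_at, chromosome 5), read 8.07, 7.81 and 8.12 in PCK, 8.35, 8.27 and 8.26 in SD, 8.48, 8.51 and 8.46 in FHH, and 8.77, 8.74 and 8.93 in FHH.Pkhd1. The 4 pools were ordered PCK, SD, FHH and FHH.Pkhd1 from low to high without overlap. The difference of Col15a1 between PCK and FHH.Pkhd1 was -0.81 ± 0.07 (1.75-fold, limma adjusted p = 1.87e-06), and its second probe set gave -1.25. Lama1, the laminin alpha 1 chain (1392926_at, chromosome 9), read 7.26, 7.33 and 7.26 in PCK, 7.84, 7.73 and 7.78 in SD, 7.54, 7.39 and 7.59 in FHH, and 7.67, 7.78 and 7.61 in FHH.Pkhd1. PCK was the lowest pool for Lama1, whereas SD and FHH.Pkhd1 overlapped. PCK minus SD was -0.50 ± 0.06 for Lama1 (1.41-fold, limma adjusted p = 3.17e-05), short of the fold limit.

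All 9 basement membrane genes were above 0 in FHH.Pkhd1 minus FHH, by 0.08 to 0.36 with a median of 0.23, and none reached the fold limit. Lama5, the laminin alpha chain of mature basement membrane, had the largest value, 0.36 ± 0.04, with FHH arrays at 9.12, 9.08 and 9.11 and FHH.Pkhd1 arrays at 9.52, 9.41 and 9.48. The corresponding values were 0.28 ± 0.04 for Col18a1, the source of endostatin, and 0.23 ± 0.03 for Lamc1, the shared laminin gamma chain. Nid1, the nidogen that links laminin to type IV collagen, read 11.15, 11.07 and 11.10 in FHH and 11.28, 11.14 and 11.22 in FHH.Pkhd1. Those arrays overlapped, and the difference for Nid1 was 0.11 ± 0.05 (limma adjusted p = 0.118). In PCK minus SD, Lamb1, a laminin beta chain, differed by 0.21 ± 0.04, and Nid1 by -0.20 ± 0.05 on its kept probe set. The second probe set of Nid1 gave 0.04, so no direction is drawn for Nid1 in that comparison.

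The small leucine-rich proteoglycans bind collagen fibrils and govern their spacing, and this group held the widest gap of the set. Lum, or lumican (1367749_at, chromosome 7), read 5.42, 5.57 and 5.38 in PCK, 6.21, 6.49 and 6.19 in SD, 7.60, 7.65 and 7.54 in FHH, and 7.57, 7.60 and 7.64 in FHH.Pkhd1. FHH and FHH.Pkhd1 overlapped, SD was well below them and PCK lay lower still, under the detection level. The difference was -2.15 ± 0.07 in PCK minus FHH.Pkhd1 (limma adjusted p = 3.69e-10) and -0.84 ± 0.07 in PCK minus SD (3.29e-06). With values under the detection level set to that level, PCK minus SD was -0.55 ± 0.07 and its call was lost, whereas Lum was still called in PCK minus FHH.Pkhd1. In SD minus FHH it was -1.30 ± 0.07 (2.47-fold, limma adjusted p = 6.14e-08).

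Dcn, or decorin (1370956_at), lies next to Lum on chromosome 7. Its arrays read 11.19, 11.26 and 11.20 in PCK, 11.06, 10.96 and 10.97 in SD, 11.86, 11.84 and 11.85 in FHH, and 11.99, 11.95 and 11.98 in FHH.Pkhd1. As for Lum, the FHH and FHH.Pkhd1 arrays were the high ones, but for Dcn PCK lay above SD. Dcn differed by -0.85 ± 0.04 in SD minus FHH (1.81-fold, limma adjusted p = 5.23e-09) and by -0.76 ± 0.04 in PCK minus FHH.Pkhd1 (1.69-fold, 7.88e-09). Biglycan, Bgn, ran from 9.76 to 9.91 with no call. Fibromodulin, Fmod, reached the detection level in FHH.Pkhd1 alone (5.49 in PCK, 5.61 in SD, 5.69 in FHH and 5.88 in FHH.Pkhd1), also with no call.

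Matrix glycoproteins included 2 further genes that separated the backgrounds. Postn, or periostin (1373911_at, chromosome 2), a matricellular protein of fibroblasts, read 5.50, 5.38 and 5.37 in PCK, 5.41, 5.38 and 5.48 in SD, 6.64, 6.46 and 6.68 in FHH, and 6.79, 6.71 and 6.78 in FHH.Pkhd1. SD and PCK overlapped below the detection level, and FHH and FHH.Pkhd1 were above it. The differences of Postn were -1.17 ± 0.06 in SD minus FHH (limma adjusted p = 1.38e-08) and -1.35 ± 0.06 in PCK minus FHH.Pkhd1 (1.92e-09).

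Tnc, or tenascin C (1373401_at, chromosome 5), an adhesion-modulating glycoprotein, read 8.64, 8.64 and 8.58 in PCK, 8.05, 8.01 and 7.95 in SD, 9.29, 9.14 and 9.21 in FHH, and 9.37, 9.33 and 9.36 in FHH.Pkhd1. None of the 4 pools overlapped for Tnc, and PCK lay between SD and the FHH pools. Tnc was lower in SD than in FHH by -1.21 ± 0.04 (2.31-fold, limma adjusted p = 7.17e-10) and lower in PCK than in FHH.Pkhd1 by -0.73 ± 0.04 (1.66-fold, 3.54e-08). It was higher in PCK than in SD by 0.61 ± 0.04 (1.53-fold, 3.41e-07).

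The other measured glycoproteins had no call in these comparisons. Sparc, a collagen-binding matricellular protein, read 11.92, 11.89 and 11.96 in PCK, 12.23, 12.18 and 12.11 in SD, 12.19, 12.11 and 12.11 in FHH, and 12.48, 12.40 and 12.43 in FHH.Pkhd1. Its second probe set went another way, with 0.39 in PCK minus SD and -0.72 in SD minus FHH where the kept one gave -0.25 and 0.04, so no direction is drawn for Sparc in those comparisons. Fn1, fibronectin, spanned 10.48 to 10.74 with no call. Fbn1, the fibrillin of elastic microfibrils, was lowest in PCK (9.13 ± 0.09) and otherwise lay at 9.44 to 9.50.

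Promoter sequence from the RefSeq table of the GRCr8 assembly, the Brown Norway reference and not the strains measured, was at hand for 30 of the 41 genes. The 120 bases before the annotated start are shown for Lum, Postn and Tnc, which were called lower on the SD side in both background comparisons, and for Ctgf, which went the opposite way. Capitals mark matches, on either strand, to any of 4 short motifs. These were the TATA box, searched as TATAAA, and the GC box, searched as GGGCGG. The third was the motif of TEAD factors, searched as GGAATG. The fourth was the SMAD element, searched as CAGAC. A match on the opposite strand appears as its reverse complement. Postn lies at chr2:140677941-140678060 on the plus strand, Lum at chr7:34245586-34245705 on the plus strand, Tnc at chr5:82476132-82476251 on the minus strand and Ctgf at chr1:22624615-22624734 on the minus strand.
Postn: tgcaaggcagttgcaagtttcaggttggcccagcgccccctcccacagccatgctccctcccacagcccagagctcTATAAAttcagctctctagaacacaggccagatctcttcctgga
Lum: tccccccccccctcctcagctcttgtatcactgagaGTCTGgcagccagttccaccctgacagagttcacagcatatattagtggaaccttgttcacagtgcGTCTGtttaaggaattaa
Tnc: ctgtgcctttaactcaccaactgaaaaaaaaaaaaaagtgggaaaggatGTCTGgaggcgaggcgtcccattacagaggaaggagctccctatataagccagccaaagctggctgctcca
Ctgf: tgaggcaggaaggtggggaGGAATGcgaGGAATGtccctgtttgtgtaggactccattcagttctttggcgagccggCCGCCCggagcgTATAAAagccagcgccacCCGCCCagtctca

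Positions count back from the start, with -1 the base just before it. Ctgf had TEAD matches starting at -101 and -92 and a TATA box at -31, and Postn had a TATA box at -44. Matches to the SMAD element started at -84 and -18 for Lum and at -71 for Tnc. Over the whole 250 upstream bases, CAGAC was present in 16 of the 30 matrix promoters (53.3%) and in 42.9% of all 33469 promoters of the table. Matrix genes were counted with 1 promoter each, whereas the 33469 promoters were not reduced to 1 per gene, so the shares differ in unit. GGAATG was present in 8 of 30 (26.7%) against 12.1%, GGGCGG in 15 of 30 (50%) against 30.5%, and TATAAA in 4 of 30 (13.3%) against 12.9%. For CCAAT the count was 8 of 30 (26.7%) against 34%, for the AP-1 motif TGANTCA 1 of 30 (3.33%) against 6.34%, and for the CArG box 0 of 30 against 1.5%. A match is a run of letters, not a measured binding site.

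Lox, lysyl oxidase (1368171_at, chromosome 18), which starts collagen and elastin crosslinking, read 8.69, 8.76 and 8.71 in PCK, 7.69, 7.68 and 7.61 in SD, 8.27, 8.03 and 8.13 in FHH, and 8.38, 8.35 and 8.36 in FHH.Pkhd1. On this probe set PCK was the highest pool and SD the lowest, with no overlap among the 4. On the second probe set of Lox, FHH was the lowest pool (7.36, with SD at 7.52). There the PCK arrays (7.84, 8.08 and 8.08) overlapped the FHH.Pkhd1 arrays (8.07, 7.80 and 7.95). Lox was higher in PCK than in SD by 1.06 ± 0.05 (2.09-fold, limma adjusted p = 1.37e-08), and its second probe set gave 0.48. Loxl1, a related crosslinking enzyme, read 9.16 to 9.26 in PCK, 9.25 to 9.31 in SD, 9.27 to 9.36 in FHH and 9.41 to 9.50 in FHH.Pkhd1, with no call.

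Mmp9, gelatinase B (1398275_at, chromosome 3), was the only matrix gene that passed the adjusted p as lower in FHH.Pkhd1 than in FHH. Its arrays read 7.04, 7.01 and 6.89 in PCK, 7.87, 7.88 and 7.75 in SD, 7.96, 7.87 and 7.82 in FHH, and 7.26, 7.39 and 7.41 in FHH.Pkhd1. Both pools with the Pkhd1 mutation lay below both pools without it, and SD and FHH overlapped. PCK minus SD was -0.85 ± 0.06 (1.80-fold, limma adjusted p = 2.76e-07), which was called. FHH.Pkhd1 minus FHH was -0.53 ± 0.06 (limma adjusted p = 4.66e-05), short of the fold limit. A second probe set of Mmp9 gave -0.86 and -0.49 for the same comparisons. Mmp14, the membrane-anchored collagenase, read 8.75, 8.71 and 8.73 in PCK and 9.10 to 9.31 on the other 9 arrays, and its PCK minus SD difference was -0.38 ± 0.04, without a call. A second probe set of Mmp14 gave 0.03 there and 0.56 in FHH.Pkhd1 minus FHH, where the kept one gave -0.05, so no direction is drawn for Mmp14. Mmp2, gelatinase A, ran from 8.24 in SD to 8.60 in FHH.Pkhd1.

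The metalloproteinase inhibitors had no call in any comparison. Timp3, the inhibitor that binds to matrix, lay at 12.41 or 12.42 in all 4 pools (adjusted p of the 4-strain limma F test = 0.979), the narrowest span of the set at 0.01. That holds for the kept probe set of Timp3, on which the calls rest. Another one gave 0.46 in FHH.Pkhd1 minus FHH, 0.41 in SD minus FHH and -0.80 for the interaction, the last past the fold limit. The remaining probe sets of Timp3 gave interactions of -0.20 and -0.13. Timp1, a secreted inhibitor, read 8.44, 8.62 and 8.63 in PCK, 8.31, 8.20 and 8.17 in SD, 8.35, 8.40 and 8.36 in FHH, and 8.41, 8.34 and 8.21 in FHH.Pkhd1. PCK was highest for Timp1, and PCK minus SD was 0.34 ± 0.06 (1.26-fold, limma adjusted p = 0.00101). Timp2 ran from 9.21 to 9.41.

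Ctgf, connective tissue growth factor (1367631_at, chromosome 1), a secreted matricellular protein, read 10.86, 10.90 and 10.90 in PCK, 10.83, 10.85 and 10.86 in SD, 10.20, 10.17 and 10.20 in FHH, and 10.44, 10.44 and 10.36 in FHH.Pkhd1. It was higher on the SD and PCK arrays than on all FHH and FHH.Pkhd1 arrays. SD minus FHH was 0.66 ± 0.03 (1.58-fold, limma adjusted p = 2.08e-08), which was called, and PCK minus FHH.Pkhd1 was 0.47 ± 0.03, short of the fold limit. The transforming growth factor genes had no call in these 4 comparisons. Tgfb2 was highest in FHH.Pkhd1 (7.00 ± 0.03, against 6.50 to 6.69 in the other pools). Tgfb1 averaged 5.84 to 6.16 and Tgfb3 5.92 to 6.28.

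The myofibroblast and pericyte genes passed no test of the 4 strains. Acta2, smooth muscle actin, read 7.70, 7.55 and 7.67 in PCK, 7.73, 7.59 and 7.76 in SD, 7.50, 7.65 and 7.64 in FHH, and 7.73, 7.73 and 7.90 in FHH.Pkhd1. All 4 pools overlapped in a chain for Acta2 (adjusted p of the 4-strain limma F test = 0.0814). Pdgfrb, the receptor of pericytes and fibroblasts, ran from 8.06 to 8.18 (0.189).

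**Figure D2:**
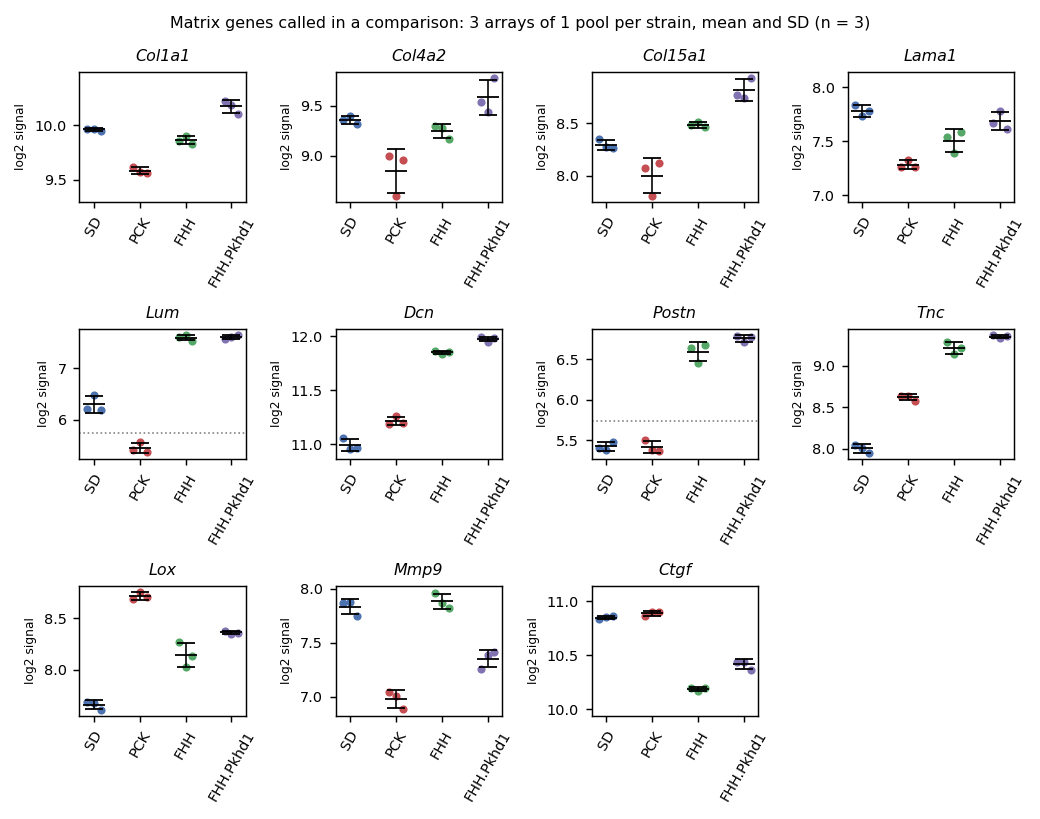
Log2 signal (vertical axis, a separate range per panel) of the 11 matrix genes called in a comparison, on the 3 arrays of each strain pool (points), with mean and standard deviation (bars, n = 3). The dotted line is the detection level of 5.74, under which PCK lies for Lum, and SD and PCK lie for Postn.

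The comparison of PCK with SD and that of FHH.Pkhd1 with FHH share no array, and each sets a Pkhd1 strain against its background strain. Over the 40 matrix genes the differences had the same sign in 19, with Pearson's r of 0.28 and Spearman's rho of 0.07 across genes, which are not independent replicates. Mmp9 was at the low end of both. The difference between the differences, the interaction, was called for 6 of 40 matrix genes, against 5.02% of all genes. Of these, Lox was more positive in PCK minus SD, by 0.84 ± 0.07 (limma adjusted p = 3.57e-06). The other 5 were more negative there: Col4a2 by -0.85 ± 0.14 (8.27e-04), Lum by -0.85 ± 0.11 (8.35e-05), Col1a1 by -0.70 ± 0.05 (1.44e-06), Lama1 by -0.68 ± 0.08 (5.76e-05) and Col15a1 by -0.62 ± 0.10 (6.71e-04).

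For Col4a2 the component differences had opposite signs, -0.51 ± 0.10 between PCK and SD, and 0.34 ± 0.10 between FHH.Pkhd1 and FHH. The same held for Col1a1 (-0.38 ± 0.04 and 0.31 ± 0.04), Lama1 (-0.50 ± 0.06 and 0.18 ± 0.06) and Col15a1 (-0.29 ± 0.07 and 0.33 ± 0.07). The other probe set of Col1a1 did not show opposite signs. Its PCK and SD means were both 7.88, its FHH.Pkhd1 minus FHH difference was 0.32 and its interaction -0.32. For Lum the values were -0.84 ± 0.07 and 0.01 ± 0.07, and for Lox 1.06 ± 0.05 and 0.22 ± 0.05. The Lum interaction rests on PCK values under the detection level. With those set to that level it was -0.56 ± 0.10 and was no longer called, which left 5 of the 6 calls. The interaction call of Col15a1 was lost without PCK replicate 2 (-0.53) or without FHH.Pkhd1 replicate 3 (-0.57), although its second probe set gave -1.12. For Lox the second probe set gave -0.10 because its FHH.Pkhd1 minus FHH difference was 0.58, and when the probe sets were averaged the call was lost (0.37), as it was for Col1a1 (-0.51). By adjusted p alone, 20 matrix genes had a negative and 3 a positive interaction (57.5% of the 40, against 30.7% of all genes), with a median of -0.22 against -0.01 over all genes.

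**Figure D3:**
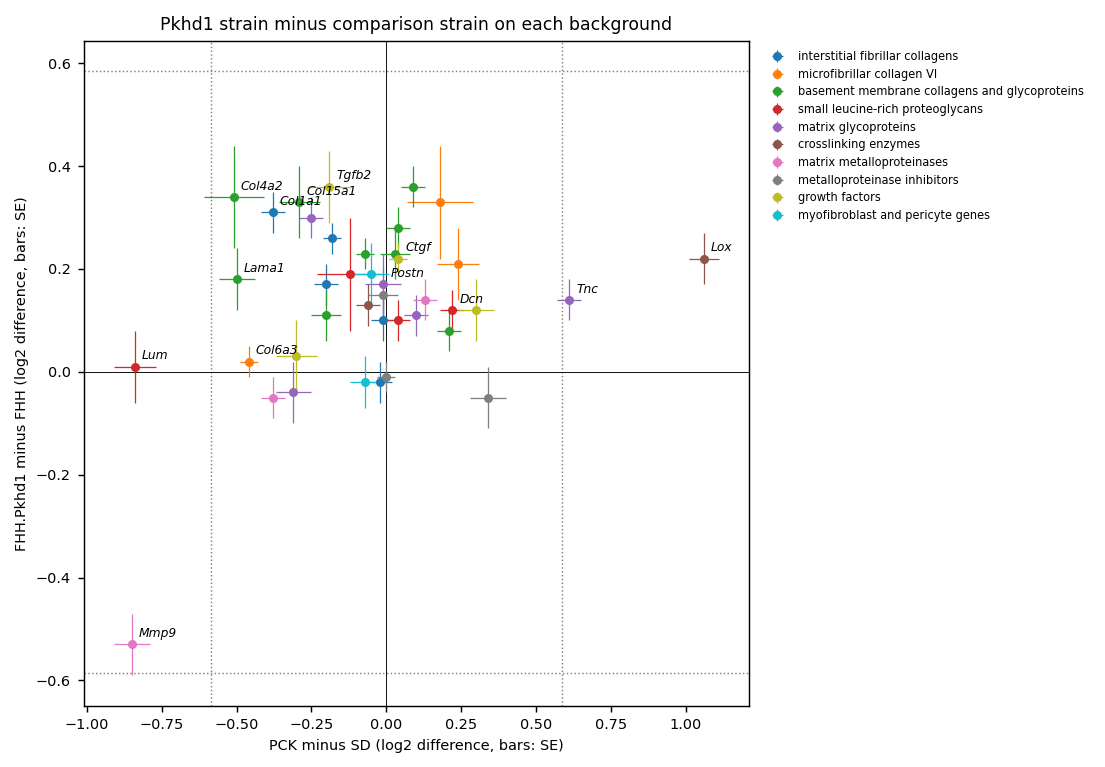
Log2 difference of PCK minus SD (horizontal) and FHH.Pkhd1 minus FHH (vertical) for the 40 matrix genes, coloured by role, with SE bars. Dotted lines mark 1.5-fold. Lox lies at 1.06 and 0.22, Mmp9 at -0.85 and -0.53, and Lum at -0.84 and 0.01.

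The 2 background comparisons, SD minus FHH and PCK minus FHH.Pkhd1, also share no array. The differences had the same sign in 24 of 40 matrix genes, with Pearson's r of 0.70 and Spearman's rho of 0.35 across genes. Lum, Dcn, Postn and Tnc were called lower in both. Ctgf was above 0 in both (0.66 and 0.47). Col15a1 was at -0.19 ± 0.07 in SD minus FHH and at -0.81 ± 0.07 in PCK minus FHH.Pkhd1, and Col4a2 at 0.11 ± 0.10 and -0.73 ± 0.10. The gap between these pairs of values is the interaction given above.

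**Figure D4:**
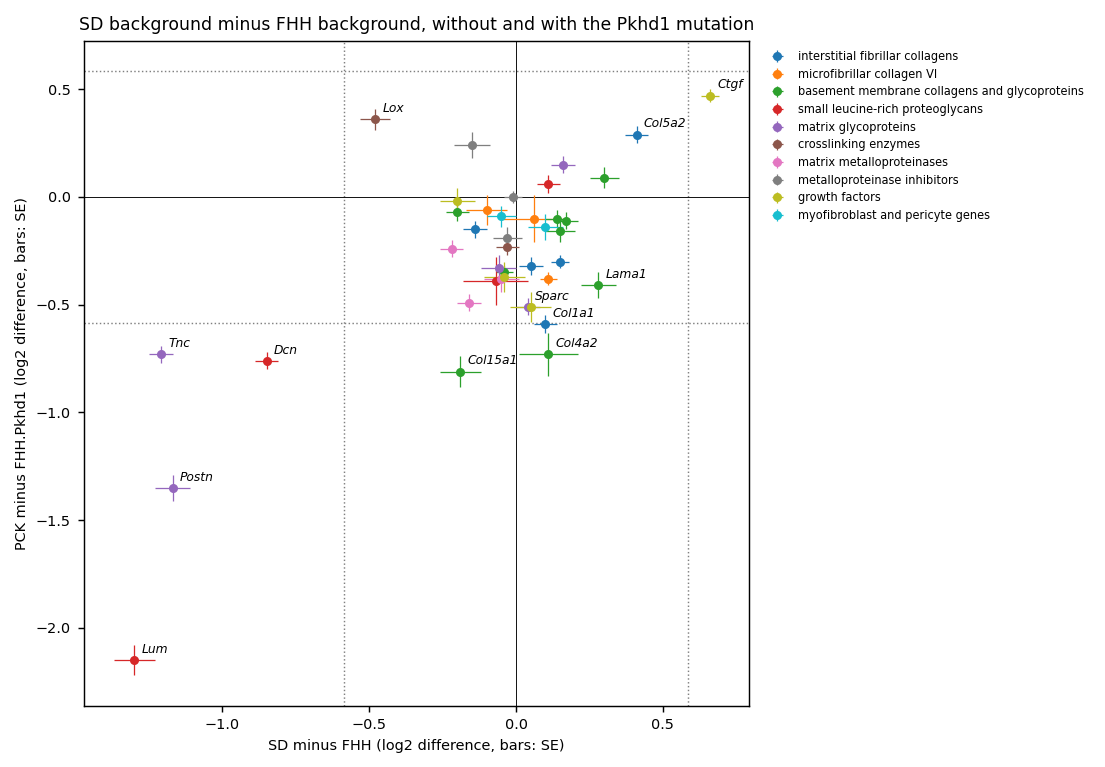
Log2 difference of SD minus FHH (horizontal) and PCK minus FHH.Pkhd1 (vertical) for the 40 matrix genes, coloured by role, with SE bars. Dotted lines mark 1.5-fold. Lum, Postn, Tnc and Dcn are low on both axes, and Ctgf is the rightmost point at 0.66.

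Markers of other tissues moved with the background. Of 9 tested genes of fat cells, 7 were called lower in SD than in FHH and 6 lower in PCK than in FHH.Pkhd1. The summed linear signal of the fat list was 2277 to 2343 in SD, 2841 to 3005 in PCK, 4568 to 4909 in FHH and 4927 to 5048 in FHH.Pkhd1. The fat gene Plin1, a lipid droplet protein, did not reach the detection level in SD (5.47) or PCK (5.44). Of 5 tested adrenal cortex genes, 4 were lower in SD than in FHH and 5 lower in PCK than in FHH.Pkhd1, and the list summed to 269 to 271 in SD, 260 to 280 in PCK, 710 to 734 in FHH and 1390 to 1512 in FHH.Pkhd1. Star, the cholesterol carrier of steroid synthesis, did not reach it either (5.60 in SD and 5.50 in PCK). Lum, Dcn and Postn are made by fibroblasts of many tissues. The part of such tissue in the background differences of Lum, Dcn, Postn and Tnc was not tested. In a whole-kidney pool, fewer cells of a type and less RNA per cell cannot be told apart.

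Genes of the fibroblast list did not all go one way. Of 9 tested, 2 were called lower in SD minus FHH, Mfap5 and Scara5 (with SD and FHH below the detection level for Scara5). In PCK minus FHH.Pkhd1, Dpep1 was called higher, and Pi16 and Mfap5 lower. Dpep1 is not specific to fibroblasts in a whole kidney, which holds for every comparison in which it is named. By sign alone, 5 of the 9 were above 0 and 4 below in PCK minus FHH.Pkhd1. The list summed to 4637 to 4741 in SD, 5002 to 5265 in PCK, 5513 to 5654 in FHH and 5316 to 5398 in FHH.Pkhd1. Beside the higher Lox and Tnc in PCK than in SD, 2 of the 9 genes of the fibroblast list were called higher there. They were Dpep1 (0.67 ± 0.05) and Scara5 (1.53 ± 0.10, with SD below the detection level). In the same comparison 2 of 9 fat genes were called higher, Lpl (1.27 ± 0.04) and Cidea (0.60 ± 0.05), as were 1 of 10 macrophage genes, Mrc1 (0.90 ± 0.05), and 1 of 9 endothelial genes, Vwf (0.76 ± 0.06). The macrophage list summed to 5789 to 5908 in PCK and 5098 to 5409 in SD, and the endothelial list to 6168 to 6411 and 5627 to 5764. Smooth muscle markers were called lower for 1 of 7 in SD minus FHH and 2 of 7 in PCK minus FHH.Pkhd1. Their sums were 2794 to 2995 in SD, 2836 to 2958 in PCK, 3075 to 3210 in FHH and 3200 to 3534 in FHH.Pkhd1. Upk1b (-1.10 ± 0.07) and Upk3a (-0.76 ± 0.06), 2 of 4 urothelial genes, and Vwf (-1.30 ± 0.06), 1 of 9 endothelial genes, were called lower in SD minus FHH. Rgs5 (-0.88 ± 0.05), 1 of 8 pericyte and mesangial genes, and Calb1 (-0.79 ± 0.03), 1 of 9 genes of tubules other than the proximal, were called lower in PCK minus FHH.Pkhd1. No gene of these lists was called higher in either background comparison. The part of these cells in the results on Lox, Tnc and the background genes was not tested.

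Beside the small positive differences of FHH.Pkhd1 minus FHH, 4 of 5 adrenal cortex genes were called higher in FHH.Pkhd1, among them Akr1b7 by 1.81 ± 0.05, and 1 of 9 fat genes and 1 of 9 endothelial genes (Vwf) were called lower. Their part was not tested. Markers moved with the interaction as well. Adrenal cortex genes were called negative for 4 of 5 (Akr1b7 -2.04 ± 0.07, Hsd3b1 -1.08 ± 0.09) and pericyte and mesangial genes for 2 of 8 (Rgs5 -0.95 ± 0.07, Kcnj8 -0.59 ± 0.13). Urothelial genes were called positive for 3 of 4 (Upk1b 0.78 ± 0.10), endothelial genes for 1 of 9 (Vwf 1.66 ± 0.08) and macrophage genes for 1 of 10 (Mrc1 0.74 ± 0.08). On the fibroblast list, Dpep1 and Scara5 were called positive and Pi16 and Mfap5 negative (2 and 2 of 9). Fat genes were called for 1 of 9 in each direction, and smooth muscle genes for 0 of 7. The pericyte and mesangial list summed to 1925 to 2092 in PCK, 1969 to 2057 in SD, 2053 to 2166 in FHH and 2299 to 2415 in FHH.Pkhd1. The urothelial list summed to 434 to 442, 340 to 353, 487 to 504 and 444 to 453 in the same order. The part of these cells in the interaction of the matrix genes was not tested. Control probe sets, like Col4a2, Col1a1, Lama1 and Col15a1, differed in opposite directions on the 2 backgrounds. Beta-actin probe sets differed between the 3' and 5' ends of the transcript by 1.33 in PCK and 1.10 in SD but 1.20 in FHH.Pkhd1 and 1.39 in FHH, and the mean of the poly-A spike-ins was 10.81, 10.47, 10.01 and 11.11 in the same order of pools. The spike-in mean was thus lowest in FHH.Pkhd1 and highest in FHH, the 2 pools with the small positive differences. The part of RNA quality or labelling in the interaction of the matrix genes, or in any comparison of 2 pools, was not tested.

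Beyond the 41 genes, 117 other matrix genes on lists of further collagens, basement membrane genes, glycoproteins, processing enzymes, proteases, growth factor signalling and matrix receptors were tested. In PCK minus SD, 7 of the 117 were called higher and 4 lower, and 3.11% of all genes were called in either direction. Col17a1, a hemidesmosome collagen, differed most among them (2.05 ± 0.08, with SD below the detection level), followed by Grem1, a secreted antagonist of bone morphogenetic proteins (1.41 ± 0.05, 2.65-fold), and Cyr61, a relative of Ctgf (-1.21 ± 0.11, 2.32-fold). The limma adjusted p of these 3 was 3.19e-09, 1.06e-09 and 2.47e-06. In FHH.Pkhd1 minus FHH, 1 of the 117 was called, and 1.26% of all genes were called. It was Eln, the elastin gene (0.61 ± 0.12, 1.52-fold, limma adjusted p = 0.00271).

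In PCK minus FHH.Pkhd1, 6 of the 117 were called higher and 4 lower, and 5.82% of all genes were called in either direction. Mfap5, a microfibril protein that also stands on the fibroblast marker list, was lower (-1.41 ± 0.09, with PCK below the detection level), and Tgfbi, an adhesion protein induced by transforming growth factor beta, was higher (1.29 ± 0.04, 2.45-fold, limma adjusted p = 1.72e-10). Adamts4, a proteoglycan-cutting protease, was higher as well (1.05 ± 0.09, with FHH.Pkhd1 below the detection level). In SD minus FHH, 1 of the 117 was called higher and 5 lower, and 3.31% of all genes were called in either direction. The higher one was the crosslinking transglutaminase Tgm2 (0.93 ± 0.03, 1.90-fold, limma adjusted p = 6.72e-10). The lower ones included Col17a1 (-1.50 ± 0.08, with SD below the detection level) and Grem1 (-0.87 ± 0.05, 1.83-fold, limma adjusted p = 5.99e-08). The interaction was called for 8 of the 117 in each direction, and for 5.02% of all genes in either direction. Col17a1 (1.83 ± 0.12) and Grem1 (1.12 ± 0.07) were positive and Cyr61 (-1.50 ± 0.15) was negative. The median differences of the 117 lay between -0.02 and 0.04 in all 5 contrasts.

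Several matrix genes are neighbours in the genome, and their values did not always go together. Lum and Dcn, Col4a1 and Col4a2, Col3a1 and Col5a2, and Col6a1 and Col6a2 are each adjacent, with no protein-coding gene between them in the GRCr8 annotation. Lum and Dcn were both lower on the SD background but had opposite signs in PCK minus SD (-0.84 ± 0.07 and 0.22 ± 0.04). Col3a1 and Col5a2 had opposite signs in PCK minus FHH.Pkhd1 (-0.32 ± 0.04 and 0.29 ± 0.04). On chromosome 9, which carries the congenic segment, lie Col3a1, Col5a2, Col6a3, Lama1 and Fn1. None of these 5 was called in FHH.Pkhd1 minus FHH, with differences of 0.02 to 0.18, and which of them the segment holds is not stated in the labels.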

How the data were processed

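Kidney RNA of 4 strain pools was measured on 12 arrays, 3 technical replicates per pool; per the labels' protocols, 100 ng of RNA was labelled with the Affymetrix 3' IVT Express kit. The authors deposited log2 signals per probe set. Per the submitters' processing notes, RMA and Partek 6.2 were used to make them; no further normalization was applied here. Of 31099 probe sets, 57 controls were left out; 20826 carried 1 symbol, 436 several and 9780 none, in platform annotation that can be old. Symbols were matched to RefSeq GRCr8 (20812 matched), giving 14204 genes, each taken from the probe set with the highest mean. Genes whose highest pool mean reached 5.74 were tested (10887).

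Strain differences came from limma 3.58.1, run under R 4.3.3 (lmFit, eBayes, 1 mean per strain, all 12 arrays; residual degrees of freedom 8, prior 4.02), adjusted by Benjamini-Hochberg over all genes tested. The procedure was tested on simulated data. Every called matrix gene was named, and per role group the gene with the highest mean and that with the widest span; per comparison the 3 other matrix genes with the largest called differences were named. Members and lists were chosen with earlier results of these data known. Marker and matrix lists overlap in a few genes. Alternatives covered the filter, probe set choice, fold limit, variance model, arrays fitted, normalization, replicate block, leaving out arrays and a floor at the detection level. Promoters were read from RefSeq GRCr8, and Dcn, Lox and Mmp9 had no entry. Figures were drawn with matplotlib 3.10.9.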

Additional observations from a re-analysis of the deposited data

Results flagged for a closer look

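For 6 of the 40 matrix genes, against 5.02% of all genes, the interaction term of the limma fit over all genes was called. For these 6 the difference between the pool of the Pkhd1 strain and that of its background strain was itself different on the SD and the FHH background. The interaction, PCK minus SD less FHH.Pkhd1 minus FHH, was -0.85 for Col4a2, -0.85 for Lum, 0.84 for Lox, -0.70 for Col1a1, -0.68 for Lama1 and -0.62 for Col15a1. On the kept probe sets of Col4a2, Col1a1, Lama1 and Col15a1 the PCK arrays were the lowest, and FHH.Pkhd1 lay above FHH on average. For Lum, FHH.Pkhd1 minus FHH was 0.01 ± 0.07, and with values under the detection level set to that level its interaction was -0.56, no longer called. The Lox value rests on 1 probe set, since the other gave -0.10. The other probe set of Col1a1 gave -0.32, short of the fold limit, and there the PCK and SD means were both 7.88. The other probe set of Col15a1 gave -1.12. Col4a2, Lum and Lama1 had 1 probe set each, so no second one bears on their values.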

How the results depend on the processing

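The fold limit was the choice that moved the counts of called matrix genes most. Without it, 23 genes were called between PCK and SD, 22 between FHH.Pkhd1 and FHH, 31 between PCK and FHH.Pkhd1, 20 between SD and FHH, 23 for the interaction and 36 across the 4 strains. With a 2-fold limit the counts were 1, 0, 2, 3, 0 and 4. Of all 10887 genes tested, 111, 31, 201, 114, 170 and 332 were called at that limit, in the same order. Without a fold limit, 3935, 2420, 5874, 4043, 3342 and 7602 of all genes tested were called. Quantile normalization moved the median of PCK minus FHH.Pkhd1 from -0.23 to -0.18. Setting values under the detection level to that level, an alternative chosen after seeing the data, took Lum out of the calls of PCK minus SD (-0.55) and of the interaction (-0.56), which left 3 and 5 genes. The other alternatives in processing left each count within 1.5 times its value. Leaving out each array in turn gave, in the same order, 4, 0, 6 to 7, 5, and 5 to 7 for the interaction, where Tgfb2 was gained without PCK replicate 3 (-0.63), SD replicate 3 (-0.59) or FHH replicate 1 (-0.59), and 9 to 10 across the strains. With the replicate block the counts were 4, 0, 7, 5 and 6, as without it. The numbers do not pair arrays across pools: deviations of same-numbered arrays correlated at -0.33 to 0.34 (mean -0.01, 18 pairs), and those of differently numbered arrays at -0.38 to 0.32. Of the values of single genes under alternatives, 4398 kept their call or lack of one, 27 lost a call, 100 gained one, 20 uncalled values changed sign by more than their SE, and no called value changed sign; the medians under alternatives were added after the data were seen. Each pool stands for a strain by 1 pool of 6 animals, so animal variation is not measured, and values near 5.74 are imprecise in fold.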
